A study of Mus musculus with 15 samples.

Results

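The genes of the proteins of the small (40S) ribosomal subunit were followed in erythroid progenitors of the mouse fetal liver at E12.5, in wildtype embryos and in embryos with a mutation of Rpl5, a gene of the large (60S) subunit. The members were chosen by gene symbol and number 29 of the 55487 mouse genes in the deposited tables: Rpsa, Rps2, Rps3, Rps3a1, Rps4x, Rps6, Rps7, Rps9, Rps10, Rps12, Rps13, Rps14, Rps15, Rps15a, Rps16, Rps18, Rps19, Rps20, Rps21, Rps23, Rps24, Rps25, Rps26, Rps27, Rps27a, Rps27l, Rps28, Rps29 and Fau. The rule that names them uses the symbol alone, although the list was chosen with earlier results of these data known. All 29 passed the filter on low counts in each fit. Group 1 of mice held 3 wildtype and 3 mutant libraries made from RNA labelled polyA. Group 2 held 3 wildtype, 3 mutant and 3 mutant libraries labelled low-yield, a term the labels do not define, all made from RNA labelled total. The strain was 129S6/SvEvTac throughout and the source fetal liver. In group 2 the mutant and the low-yield mutant genotype is written Rpl5plusSkax23Jus in the sample sheet, while for group 1 only the letters WT and M are given. The labels do not say how the progenitors were isolated, nor whether replicates came from separate embryos, so p-values measure the spread between these libraries, which may be technical.

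The small subunit reads the mRNA: its proteins fold the 18S rRNA into a head, a body and a platform, and line the path along which the mRNA enters and leaves the ribosome. Ribosomal proteins are made in matched amounts, and most of their mRNAs begin with a run of pyrimidines through which their translation is controlled together. Mutations in one copy of such a gene, of the small or the large subunit, cause Diamond Blackfan anemia, in which the bone marrow makes too few red cells. The title of the series names this disease, and the comparisons below ask how the small subunit genes stood when a large subunit gene was mutated.

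The bases around the annotated transcription starts of the members are shown first, and their relation to the levels below was not tested. RefSeq promoter entries of GRCm38.p6 were matched for 25 of the 29 members, and none was matched for Rps14, Rps20, Rps27a and Rps29. Each window runs 5′ to 3′ from 20 bases before the start to 20 bases from the start onward, with the run of C and T nearest the start in capitals. The first 5 belong to members with a long run, and the last belongs to Rps27l, the member whose level changed (first of its annotated starts).
Rps6, chr4:86857348-86857387, minus strand: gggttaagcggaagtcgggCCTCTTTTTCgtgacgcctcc
Fau, chr19:6057927-6057966, plus strand: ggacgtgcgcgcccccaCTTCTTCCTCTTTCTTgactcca
Rps10, chr17:27635225-27635264, minus strand: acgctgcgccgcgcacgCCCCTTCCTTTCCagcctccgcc
Rps18, chr17:33955646-33955685, minus strand: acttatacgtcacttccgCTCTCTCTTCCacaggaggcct
Rps27, chr3:90213629-90213668, minus strand: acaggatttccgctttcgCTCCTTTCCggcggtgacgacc
Rps27l, chr9:66946066-66946105, plus strand: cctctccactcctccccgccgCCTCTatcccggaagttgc
A run of at least 7 C or T that covered the start or began within 5 bases of it was found for 10 of the 25 members, and for 10.8% of 27025 genes with a promoter entry. This count rests on the limit of 7 and on the annotated starts, so it does not show that the other members lack a run. The longest run was 16 bases in Fau, whose protein is a ubiquitin-like protein joined to the ribosomal protein S30, whereas that of Rps27l was 5 bases. The letters CCGGAAG, searched on both strands over 250 bases before to 50 bases after the start, were present for 11 of the 25 members and for 9.93% of all genes. The letters TATAAA, searched the same way, were present for 2 members, Rps2 and Rps28, and for 15.7% of all genes. These are matches of letters and do not show that a factor binds.

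Rps27l was of interest for a second sequence as well. It is a near copy of Rps27 and is known as a target of the tumour suppressor p53, which is activated when ribosome assembly fails. Sequences matching the p53 half-site (a palindrome, so that both strands give the same matches) were found in the promoter windows of 4 of the 25 members, namely Rps19, Rps21, Rps27 and Rps27l, and for 9.55% of all genes. A window here is 250 bases before to 50 after an annotated start, and a gene with several starts has several windows. Rps27l held 2 matches, both in the window of its second annotated start, 210 and 107 bases before it, and none in that of the first. In its main transcript, which begins at the first start, they lie in intron 1, after exon 1 at chr9:66946086-66946180, and 117 and 220 bases after the start. They are shown in capitals, each within 30 bases of the plus strand.
Rps27l, chr9:66946193-66946222: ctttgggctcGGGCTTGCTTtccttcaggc
Rps27l, chr9:66946296-66946325: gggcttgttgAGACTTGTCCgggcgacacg

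Facts of the whole series that touch these genes are brief. Total counts per library were 48510828 to 58513669 in group 1 and 24954324 to 44827821 in group 2. All 18 erythroid markers were detected in each group. Levels in CPM are counts divided by the library total of the genes passing the filter, scaled by TMM (trimmed mean of M-values) and to 1e6. The summed level of the erythroid markers was 8628 to 11757 CPM in wildtype and 5573 to 5685 CPM in mutant libraries of group 1. The group 2 sums were 11739 to 19415 in wildtype, 8189 to 9475 in mutant and 7261 to 9324 in low-yield libraries. All 13 granulocyte markers were likewise detected, at a summed 112 to 848 CPM in wildtype and 275 to 1558 CPM in mutant libraries of group 1. In group 2 they summed to 18.3 to 39.0 CPM in wildtype, 146 to 240 CPM in mutant and 186 to 400 CPM in low-yield libraries. Megakaryocyte markers summed to 16.2 to 18.8 CPM in wildtype, 26.6 to 27.1 CPM in mutant and 37.4 to 48.2 CPM in low-yield libraries of group 2, and to overlapping 19.2 to 30.6 and 27.4 to 43.7 CPM in wildtype and mutant libraries of group 1. Endothelial markers summed to 50.9 to 57.2 CPM in wildtype and 62.9 to 69.1 CPM in mutant libraries of group 1. Their sums overlapped in group 2. Of the 5 tested there, 1 was called higher in mutants (3.32% of all genes) and 3 in low-yield mutants (6.68%). Hepatocyte markers summed to 38.1 to 71.3 CPM in wildtype and 8.77 to 25.6 CPM in mutant libraries of group 1 and overlapped in group 2, with Apoc3 at 0 throughout. Macrophage and lymphoid markers each summed to at most 10.7 CPM in any library, with Timd4 and Vsig4 of macrophages at 0 throughout. Erythroid marker sums were thus lower in mutants of both groups of mice, hepatocyte sums were lower and endothelial sums higher in those of group 1, and granulocyte and megakaryocyte sums were higher in those of group 2. The part of these in the results below was not tested. In bulk RNA, fewer cells of a type cannot be told apart from less RNA per cell.

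Rpl5 itself served as the check of the labels. Its level, scaled by TMM as are the levels below, was 656, 668 and 744 CPM in the wildtype libraries of group 1. The mutant libraries of group 1 held 520, 561 and 570 CPM. The group 2 libraries held 324, 303 and 374 CPM in wildtype, 232, 248 and 248 CPM in mutant and 243, 219 and 278 CPM in low-yield libraries. The mutant libraries lay below the wildtype ones without overlap in both groups of mice. By edgeR's quasi-likelihood test with Benjamini-Hochberg adjustment, Rpl5 fell by 0.32 on the log2 scale in group 1 (SE 0.07, adjusted p = 0.00971), by 0.46 in group 2 mutants (SE 0.10, adjusted p = 0.0117) and by 0.44 in low-yield mutants (SE 0.10, adjusted p = 0.00870). Near-identical Rpl5 copies took 58.6% of the counts of gene and copies together in group 1 and 69.3% in group 2. With these added, the fall was 0.42, 0.41 and 0.46 on the log2 scale in the same order.

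Small subunit genes were among the abundant transcripts of these cells. Summed over the 29 members, they took 2.53% ± 0.10 (SD, n = 3) of the counts in wildtype and 2.50% to 2.81% in the 3 mutant libraries of group 1. In group 2 their share was 2.16% ± 0.19 in wildtype, 2.19% ± 0.10 in mutant and 2.14% ± 0.15 in low-yield libraries (SD, n = 3 each). In group 2 the 3 means lay within 1 SD of each other. Leaving haemoglobin and mitochondrial genes out of the total gave 2.61% and 2.76% in group 1 and 2.17% to 2.22% in group 2.

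Levels of different members were compared per kilobase of coding sequence, which leaves the untranslated parts of the mRNA uncounted. In wildtype libraries of group 1, Rpsa stood highest, at 3900 ± 215 CPM per kb (SD, n = 3). Its protein sits at the back of the subunit, near the mRNA exit, and also serves as a laminin receptor. Its library values were 3395, 3295 and 3664 CPM in wildtype and 3505, 3848 and 3956 CPM in mutants, which overlap. Each mutant library lay above the wildtype library of the same number, a pairing that the labels do not state. Rps12, of the head, and Rps2, whose protein borders the mRNA entrance, followed at 3833 ± 172 and 3006 CPM per kb, and Rpsa and Rps12 do not differ beyond their spread. With near-identical copies counted the order was Rpsa at 3926, Rps2 at 3873 and Rps12 at 3860 CPM per kb. In wildtype libraries of group 2 Rps26 was highest, at 4617 ± 408 CPM per kb (SD, n = 3). Its protein touches the mRNA upstream of the start codon, and its gene is mutated in some patients with Diamond Blackfan anemia. Rpsa followed at 4077 ± 299 and Rps2 at 4013 ± 511 CPM per kb, and these values do not differ beyond their spread. With near-identical copies counted, Rps2 came first in group 2 at 5223 ± 591 CPM per kb, before Rps26 at 4635 ± 409 (SD, n = 3 each).

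Rps27l was lowest in all 5 groups of libraries, at 292 ± 9.92 CPM per kb in group 1 and 143 ± 15 CPM per kb in group 2 wildtype (SD, n = 3 each). The level of the highest member was 13.4 times that of Rps27l in group 1 and 32.2 times in group 2 (13.5 and 36.4 times with copies). The order of the 29 levels in the wildtype libraries had a Spearman rho of 0.81 between the groups of mice. The 29 genes share their length and coding sequence on both axes, and the kind of RNA differs between the groups, so the orders are set side by side without a test. Rps26 ranked 9 in group 1 and 1 in group 2, Rps14 ranked 17 and 4, and Rps20 ranked 6 and 19. These genes were picked for their difference in rank after the values were seen, and the plot of levels per length shows them.

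**Figure D1:**
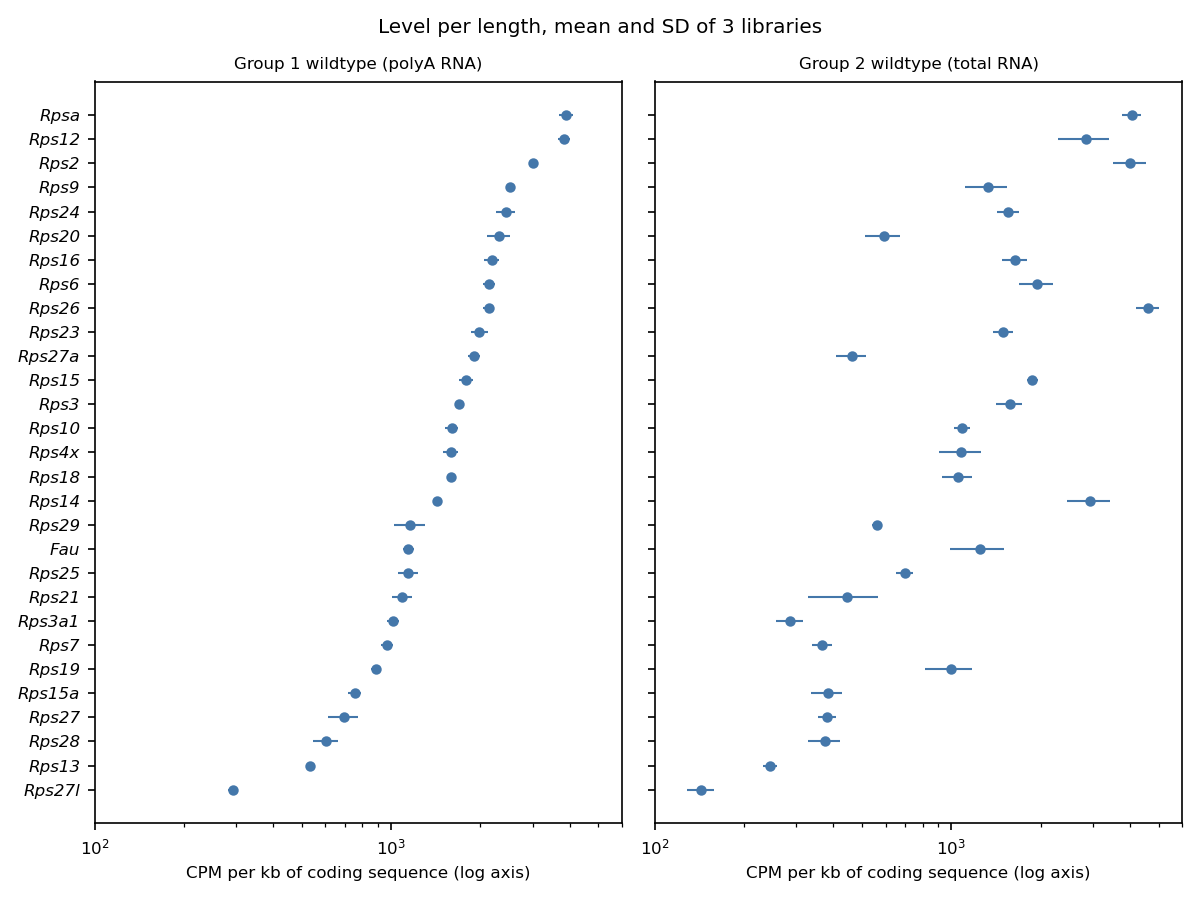
Level of each small subunit gene in wildtype libraries, as CPM per kb of coding sequence on a log axis (points: mean of 3 libraries, bars: SD), with group 1 left and group 2 right in the gene order of group 1. Rpsa (3900 CPM per kb) leads in group 1 and Rps26 (4617) in group 2, and Rps27l is lowest in both (292 and 143).

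Processed copies make these levels uncertain for a few members. A search of the GENCODE M21 transcripts with each coding sequence found 285 annotated copies of at least 90% identity over at least 70% of its length, of which 224 had counts. Over all members the copies took 8.0% of the counts of gene and copies in group 1 and 8.3% in group 2. The share was highest for Rps3a1, a protein of the platform near the mRNA exit, at 52.0% and 69.4%. It was 32.9% and 40.1% for Rps7, 28.7% and 32.1% for Rps13, 22.6% and 24.3% for Rps2, and 13.0% and 15.8% for Rps15a, in groups 1 and 2. For each of the 24 other members it was at most 5.52%. With its copies, the wildtype level of Rps3a1 moved from 1014 to 2109 CPM per kb in group 1 and from 286 to 958 in group 2. Rps27l had 5 such copies, none with a count, and its coding sequence shared 76.7% of bases with that of Rps27 over 227 of 252 bases, below the limit for a copy. Rps2 had 49 copies, and its values below hold only for the counts assigned to the gene itself.

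**Figure D2:**
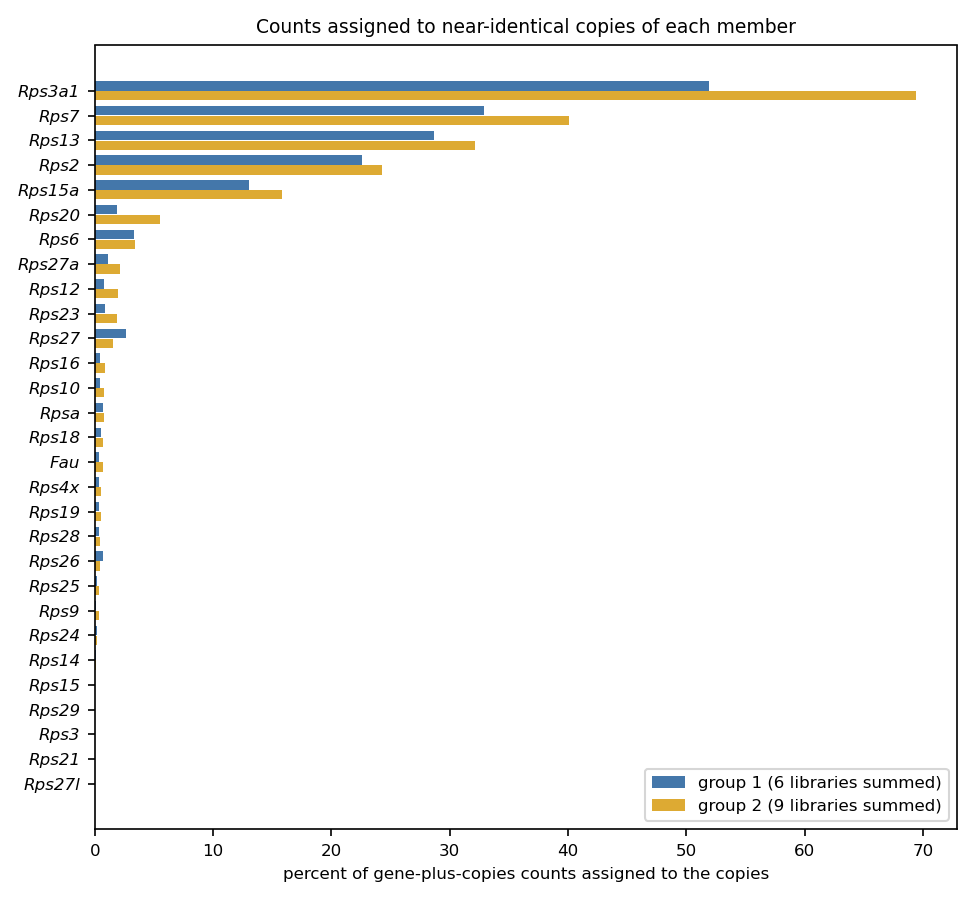
Percent of the counts of each member plus its near-identical copies that was assigned to the copies, for group 1 (6 libraries summed, blue) and group 2 (9 libraries summed, yellow). Rps3a1 stands at 52.0% and 69.4%, and Rps27l has none.

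The main comparison asked which members changed with the Rpl5 mutation. Rps27l rose in group 1 and over both groups of mice in 1 fit, while no other member passed edgeR's test on all libraries in any of the 6 comparisons. In group 2 alone its estimates had the same sign and missed the threshold. In group 1 its level was 76.0, 71.0 and 73.6 CPM in wildtype and 90.4, 95 and 94.5 CPM in mutant libraries. The lowest mutant library lay well above the highest wildtype library, and 15% of all genes tested were likewise higher without overlap. By edgeR's quasi-likelihood test Rps27l rose 1.27-fold (95% interval 1.15 to 1.40; log2 change 0.34, SE 0.06, adjusted p = 0.00473). It was the only one of 29 members called, against 12.6% of all 14048 genes tested, and ranked 474 among these by p.

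In group 2, Rps27l stood at 38.6, 31.8 and 38.1 CPM in wildtype and at 45.2, 42.5 and 46.1 CPM in mutant libraries. The low-yield libraries held 46.4, 39.0 and 43.7 CPM. Again no wildtype library overlapped with a mutant one of either kind, although the gap between the highest wildtype and the lowest low-yield library was narrow. Rps27l was the 1 member of 29 higher without overlap in each comparison, against 11.5% of all genes in mutants and 15.3% in low-yield mutants. The change was 1.23-fold in mutants (95% interval 1.06 to 1.44; log2 change 0.30, SE 0.10) and missed the threshold by edgeR's test, with an adjusted p of 0.100. In low-yield mutants it was 1.19-fold (95% interval 1.02 to 1.39; log2 change 0.25, SE 0.10; adjusted p = 0.133 by edgeR). None of the 29 members was thus called in group 2, against 6.27% of 15024 genes in mutants and 6.68% higher plus 5.86% lower in low-yield mutants. Of the members, only Rps27l had an unadjusted p under 0.05 in either comparison. With quality weights in limma voom, a setting that gives doubtful libraries less weight, Rps27l passed in mutants (adjusted p = 0.0138) and in low-yield mutants (adjusted p = 0.0195). With the replicate number as a block, a pairing the labels do not state, it passed in mutants (edgeR adjusted p = 0.0482). It did not pass so in low-yield mutants (edgeR adjusted p = 0.0738).

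Over the 12 wildtype and mutant libraries of both groups of mice, with the group as a block, Rps27l rose 1.25-fold (95% interval 1.15 to 1.36; log2 change 0.32, SE 0.06; edgeR adjusted p = 5.86e-04). All 6 mutant libraries were above the 3 wildtype libraries of their own group, as were those of 15% of all genes in group 1 and 11.5% in group 2. It was again the 1 member called, against 19.6% of 15954 genes. The difference of its change between the groups of mice was -0.02 on the log2 scale (SE 0.12, edgeR adjusted p = 1.00), where a 95% interval of -0.28 to 0.24 leaves room for either sign. Low-yield and other mutants of group 2 differed by -0.05 (95% interval -0.27 to 0.17). No member was called in the comparison of low-yield with other mutants or in the test of the difference between the groups of mice, in which edgeR called 0 of 15024 (0%) and 3 of 15954 genes (0.0188%). At an unadjusted p under 0.05 those comparisons held 480 and 342 genes, none of them a member. DESeq2 called 3 genes higher and 3 lower in the former and 4 higher and 9 lower in the latter, and limma voom called 0 and 4, again no member.

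Rps27, the paralogue of Rps27l, encodes a zinc-binding protein of the platform side. In group 1 its level was 174, 155 and 196 CPM in wildtype and 178, 216 and 208 CPM in mutants, and the groups overlapped. Each mutant library lay above the wildtype library of the same number, a pairing that the labels do not state. Group 2 libraries held 102, 89.4 and 96.0 CPM in wildtype, 96.9, 90.4 and 112 CPM in mutants and 118, 82.8 and 120 CPM in low-yield mutants, again with overlap. Its log2 changes were 0.20 (SE 0.10), 0.06 (SE 0.13) and 0.16 (SE 0.13), with edgeR adjusted p of 0.222, 0.860 and 0.479. Of the counts of the pair, Rps27l took 27.3% to 31.4% in wildtype and 30.5% to 33.7% in mutant libraries of group 1. The share in group 2 was 26.2% to 28.4% in wildtype, 29.2% to 32.0% in mutant and 26.6% to 32.0% in low-yield libraries. The shares overlapped between wildtype and mutant in group 1 and between wildtype and low-yield in group 2, and did not overlap between wildtype and mutant in group 2.

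**Figure D3:**
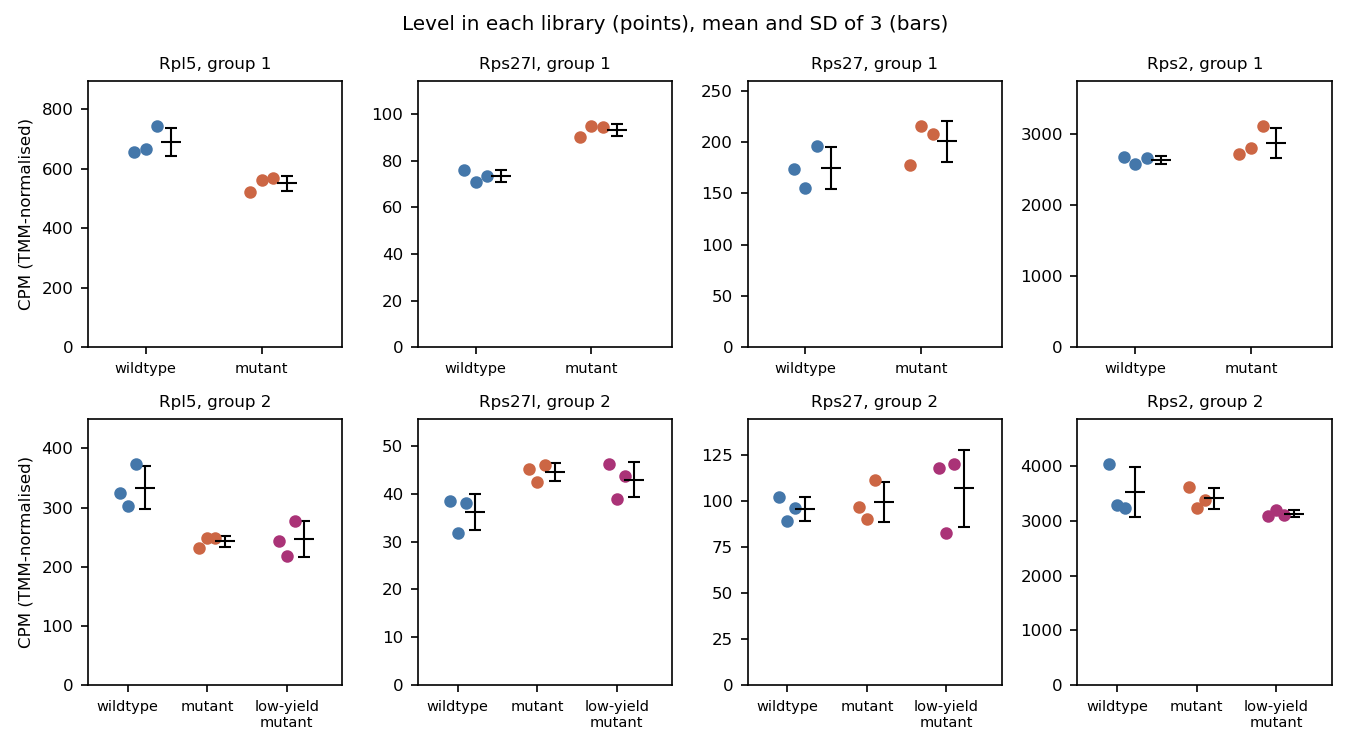
TMM-scaled CPM of Rpl5, Rps27l, Rps27 and Rps2 in each library (points) with the mean and SD of 3 libraries (bars), group 1 above and group 2 below, each axis starting at 0. Mutant points lie below wildtype for Rpl5 and above wildtype for Rps27l in both rows, from 90.4 against at most 76.0 CPM in group 1, while those of Rps27 overlap.

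The other 28 members showed small changes, and the intervals bound them. In group 1 their log2 changes ran from -0.00 in Rps4x to 0.20 in Rps27, and all 95% intervals lay between 0.855-fold and 1.35-fold. In group 2 mutants the intervals reached from 0.569-fold to 1.38-fold and in low-yield mutants from 0.627-fold to 1.51-fold. The widest in both comparisons belonged to Rps21, followed by Rps28. Over both groups of mice the intervals lay between 0.806-fold and 1.21-fold.

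In group 1, 28 of 29 estimates were above 0, with a median of 0.08 on the log2 scale beside 0.01 over all genes tested. Mitochondrial genes took 2.36% to 2.81% of the counts in wildtype and 1.60% to 1.98% in mutant libraries of group 1, and haemoglobin genes took 0.374% to 0.689% and 0.147% to 0.207%. Neither share overlapped between the genotypes, and their part in this shift was not tested. With each library left out in turn the count was 24 to 29 and the median 0.05 (without wildtype replicate 2) to 0.16 (without mutant replicate 1). Members that did not overlap between the groups were Rps2, Rps3, Rps14 and Rps27l, all higher in mutants, that is 4 of 29 against 15% of all genes tested. Rps14, a platform protein whose gene is lost in the 5q- syndrome, a related anemia, stood at 668, 632 and 648 CPM in wildtype and 677, 746 and 784 CPM in mutants. The step from the highest wildtype to the lowest mutant library was small. Its log2 change of 0.18 (SE 0.07) had an edgeR adjusted p of 0.0992, and that of Rps15a, 0.19 (SE 0.07), one of 0.108. Both passed by DESeq2, and Rps14 by limma voom as well. In group 1 DESeq2 called 1142 genes higher and 1165 lower of 12953, and limma voom 1022 and 1121 of 14048. Without mutant replicate 1 of group 1, Rps14, Rps15a and Rps28 were called beside Rps27l, 4 members in all. That fit called 844 genes higher and 810 lower of 14572. Rps3 and Rps14 were singled out after their values were seen.

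In group 2 the members stood on both sides of 0. In mutants 12 of 29 estimates were above 0, with a median of -0.01 (all genes -0.01), and in low-yield mutants 14 of 29, with a median of -0.00 (all genes -0.00). These counts rest on single libraries. Without wildtype replicate 1, 26 of 29 were above 0 in mutants and in low-yield mutants, with medians of 0.09 in both. Without mutant replicate 2 the count in mutants was 20, with a median of 0.04, and without mutant replicate 3 it was 6. Without low-yield replicate 2 the count in low-yield mutants was 24, with a median of 0.08, and without low-yield replicate 3 it was 7. With limma voom's quality weights 26 and 18 of 29 were above 0. No member was called in these fits except Rps27l with limma voom. In the test of the difference between the groups of mice, 28 of 29 estimates were below 0 (median -0.09, all genes 0.02), and 20 of 29 with limma voom, without wildtype replicate 1 or without mutant replicate 2 of group 2. The smallest edgeR p among them belonged to Rps15a, a change lower by 0.20 in group 2 (log2 difference -0.20, SE 0.12, adjusted p = 1.00).

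Rps15a, whose protein lies on the body close to the 18S rRNA core, was at 296, 278 and 307 CPM in wildtype and 304, 352 and 347 CPM in mutants of group 1. Group 2 libraries held 161, 129 and 158 CPM in wildtype, 140, 149 and 150 CPM in mutants and 144, 132 and 176 CPM in low-yield mutants. The mutant ranges overlapped with wildtype in both groups of mice. In group 1 each mutant library lay above the wildtype library of the same number, a pairing that the labels do not state. Its log2 change in group 2 was -0.03 (SE 0.11) in mutants and 0.02 (SE 0.11) in low-yield mutants, with edgeR adjusted p of 0.921 and 0.948.

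Rps2 had the smallest p of the members between the mutant kinds. It read 4045, 3296 and 3241 CPM in wildtype, 3617, 3233 and 3381 CPM in mutants and 3094, 3197 and 3099 CPM in low-yield mutants of group 2. The low-yield libraries lay below all others, making Rps2 the 1 member of 29 lower without overlap against wildtype (14.6% of all genes) and against other mutants (4.15% of all genes). With copies added, the separation from wildtype ended: low-yield replicate 3 stood at 4221.03 and wildtype replicate 3 at 4220.54 CPM. Its log2 difference was -0.17 against wildtype (SE 0.09, edgeR adjusted p = 0.245) and -0.12 against other mutants (SE 0.09, edgeR adjusted p = 1.00), so neither passed. Group 1 mutants had an estimate above 0, with 2686, 2580 and 2661 CPM in wildtype and 2717, 2808 and 3121 CPM in mutants (log2 change 0.13, SE 0.07, edgeR adjusted p = 0.255).

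Rpsa and Rps26 stood highest per length in wildtype libraries of group 1 and group 2, respectively, when copies were not counted, and their estimates were small. In group 2 Rpsa read 3904, 3523 and 3397 CPM in wildtype, 3946, 3418 and 3978 CPM in mutants and 3587, 3301 and 3795 CPM in low-yield mutants. Rps26 read 1745, 1567 and 1467 CPM in wildtype, 1615, 1495 and 1623 CPM in mutants and 1557, 1420 and 1542 CPM in low-yield mutants. The groups overlapped for both genes. In group 1 Rps26 read 751, 700 and 761 CPM in wildtype and 670, 762 and 796 CPM in mutants. The log2 change of Rpsa was 0.13 (SE 0.07) in group 1 and 0.07 (SE 0.09) in group 2 mutants, and that of Rps26 was 0.01 (SE 0.07) and -0.01 (SE 0.08).

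Further members are described by the part their proteins play; they were picked after their values were seen. Rps3, which borders the mRNA entrance and helps unwind the mRNA, read 1236, 1206 and 1261 CPM in wildtype and 1278, 1334 and 1435 CPM in mutants of group 1. These ranges do not overlap, yet its log2 change of 0.13 (SE 0.06) had an edgeR adjusted p of 0.210, and in group 2 it was 0.05 (SE 0.09) in mutants. Rps6, the protein phosphorylated by S6 kinase when growth is signalled, changed by 0.11 (SE 0.07) in group 1 and -0.03 (SE 0.09) and -0.08 (SE 0.09) in group 2 mutants and low-yield mutants. Rps27a and Fau encode a ribosomal protein joined to ubiquitin or to a ubiquitin-like protein, which is then cut off. Rps27a changed by 0.06 (SE 0.06), -0.00 (SE 0.09) and 0.01 (SE 0.09) in the same order, and Fau by 0.08 (SE 0.08), -0.05 (SE 0.14) and -0.07 (SE 0.14). Both thus stayed within their errors in group 2. Rps4x, the X-linked member, had the lowest estimate of group 1 and read 1293, 1169 and 1303 CPM in wildtype and 1143, 1295 and 1315 CPM in mutants there, with overlap. Rps15, which shapes the decoding side of the head, had the second smallest p over both groups of mice, with a log2 change of 0.12 (SE 0.05, edgeR adjusted p = 0.130).

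The shortest mRNAs of the head, Rps28 and Rps29, had wide errors. Rps28 read 122, 115 and 139 CPM in wildtype and 118, 151 and 155 CPM in mutants of group 1, a log2 change of 0.17 (SE 0.11, edgeR adjusted p = 0.365). Rps29 read 97.8, 93.8 and 90.9 CPM in wildtype, 83.9, 88.7 and 117 CPM in mutants and 116, 74.3 and 128 CPM in low-yield mutants of group 2. The wildtype libraries of Rps29 lay inside the range of both mutant kinds, and its log2 change in low-yield mutants was 0.17 (SE 0.19, edgeR adjusted p = 0.619).

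By place in the subunit, the 12 members of the head had a median log2 change of 0.09 in group 1, 0.01 in group 2 mutants and 0.02 in low-yield mutants. The 17 of the body and platform, Rps27l included, had 0.08, -0.03 and -0.02. By edgeR's test on all libraries, no head member was called in any comparison. The 10 members in which mutations are known in Diamond Blackfan anemia (Rps7, Rps10, Rps15a, Rps19, Rps20, Rps24, Rps26, Rps27, Rps28 and Rps29) had medians of 0.08, 0.00 and 0.04, and edgeR's test on all libraries called none in any comparison. Rps15a passed by DESeq2 in group 1, and the head members Rps3, Rps10 and Rps15, with Rps27, passed by limma voom over both groups of mice. In the latter fit 1993 genes were called higher and 2013 lower of 15954. Rps19, the gene most often mutated in that disease, changed by 0.06 (SE 0.07), -0.07 (SE 0.15) and -0.10 (SE 0.15) on the log2 scale, with edgeR adjusted p of 0.619, 0.838 and 0.722.

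**Figure D4:**
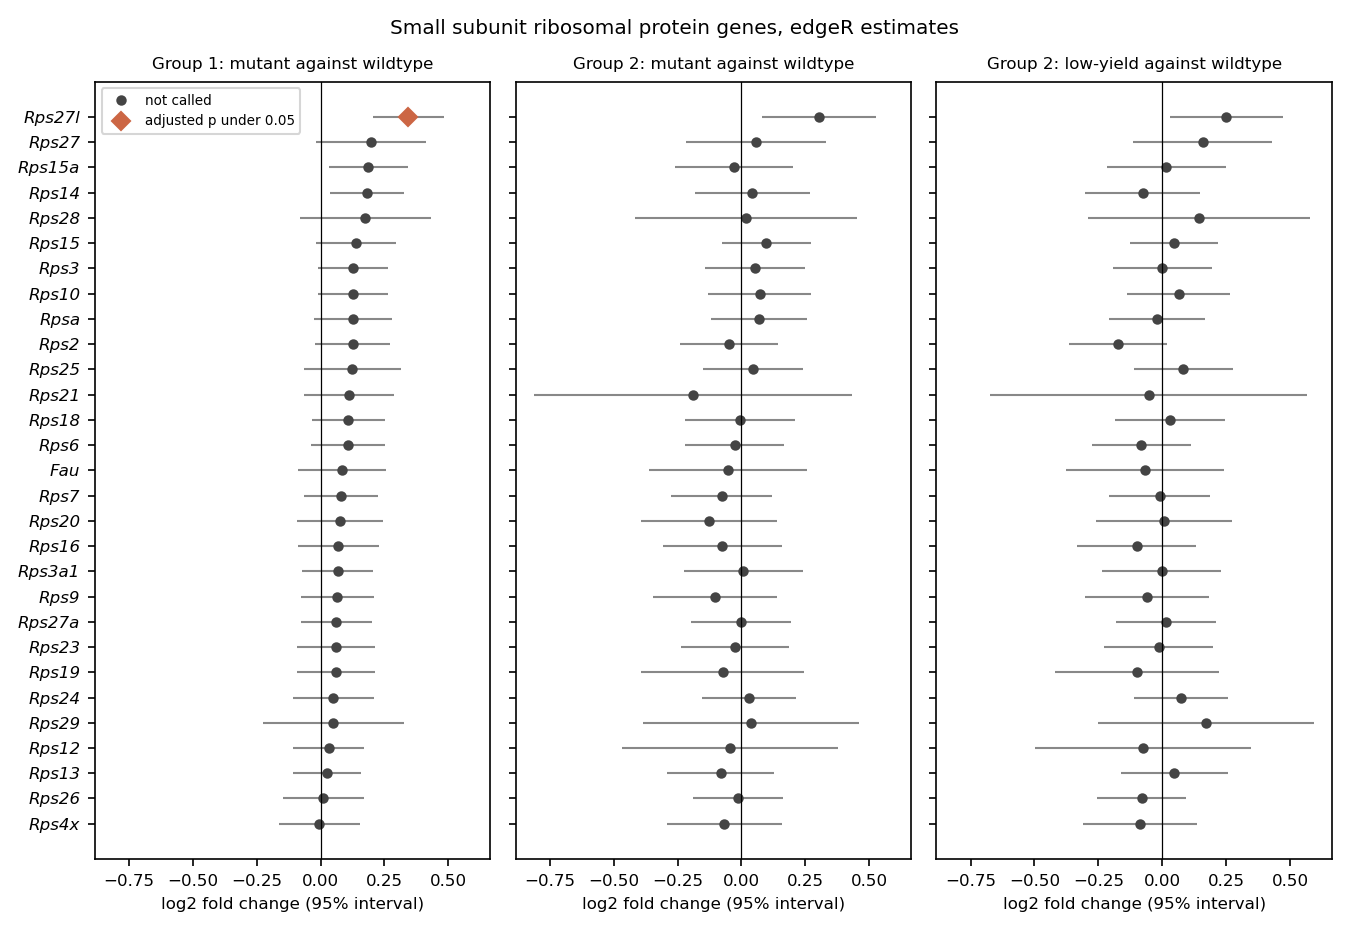
Log2 fold change of each member against wildtype (points) with its 95% interval (lines) in group 1 mutants, group 2 mutants and group 2 low-yield mutants, in the gene order of group 1. The diamond marks Rps27l in group 1 (0.34), the only call; in both other panels it also lies farthest to the right (0.30 and 0.25), while Rps21 has the widest interval in group 2.

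In most libraries the members lay on the same side of their group mean. Measured as log2 CPM minus that mean, at least 24 of the 29 were on one side in 12 of the 15 libraries. The division was most even in mutant replicate 1 of group 2, with 17 above and 12 below (median 0.02), and it was 21 and 8 in low-yield replicate 1 and 22 and 7 in wildtype replicate 1 of group 1. The libraries that follow were picked for a split of at least 28 to 1. All 29 were above their mean in mutant replicate 3 of group 1 (median 0.08) and in wildtype replicate 1 of group 2 (median 0.15). All 29 were below it in wildtype replicate 2 (median -0.07) and mutant replicate 1 of group 1 (median -0.11). In low-yield replicate 2 (median -0.18) and mutant replicate 2 of group 2 (median -0.12) it was 28 of 29. The 48 genes of the large subunit list moved the same way, with medians of 0.07, 0.18, -0.09, -0.09, -0.14 and -0.12 in these libraries. The SD within groups had a median of 0.09 over the members in group 1 and 0.15 in group 2.

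The spread was widest for 3 of the shortest mRNAs. In group 2 the SD was 0.36 for Rps21, 0.29 for Rps28 and 0.28 for Rps29, and the Spearman rho between SD and coding length over the 29 genes was -0.41, against -0.60 in group 1. These genes come from the same libraries, so the points are not independent. Rps21, a small protein of the body, shows the pattern in its levels. It read 144, 102 and 87.0 CPM in wildtype, 94.1, 79.2 and 118 CPM in mutants and 127, 74.4 and 120 CPM in low-yield mutants of group 2. The ranges of the 3 groups overlap. Its log2 changes were -0.19 (SE 0.27) in mutants, -0.05 (SE 0.27) in low-yield mutants and 0.14 (SE 0.27) between the mutant kinds, with edgeR adjusted p of 0.763, 0.930 and 1.00. In group 1 it read 268, 253 and 295 CPM in wildtype and 264, 319 and 297 CPM in mutants (log2 change 0.11, SE 0.08, edgeR adjusted p = 0.409). The difference of its change between the groups of mice was -0.28 (SE 0.25), the largest of any member in size.

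Taken by length, the 5 members under 300 coding bases deviated by a median of -0.47 in low-yield replicate 2, while the 6 members over 700 bases deviated by -0.08. In the same library 246 other genes of such short coding length deviated by -0.08. In low-yield replicates 1 and 3 the short members deviated by 0.16 and 0.20 and in mutant replicate 3 by 0.26, against -0.02, 0.09 and 0.06 for the long members. Other short genes lay between -0.08 and 0.05 in these 4 libraries, which were picked for the departure of the short members. Over all 15 libraries the median of the short members lay further from 0 in 9 and that of the long members in 6. The latter included wildtype replicate 1 of group 2, at 0.19 for the long and 0.10 for the short members. Rps27l, with 252 coding bases, did not share this spread: it stayed within 0.20 of the group mean in all 15 libraries.

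**Figure D5:**
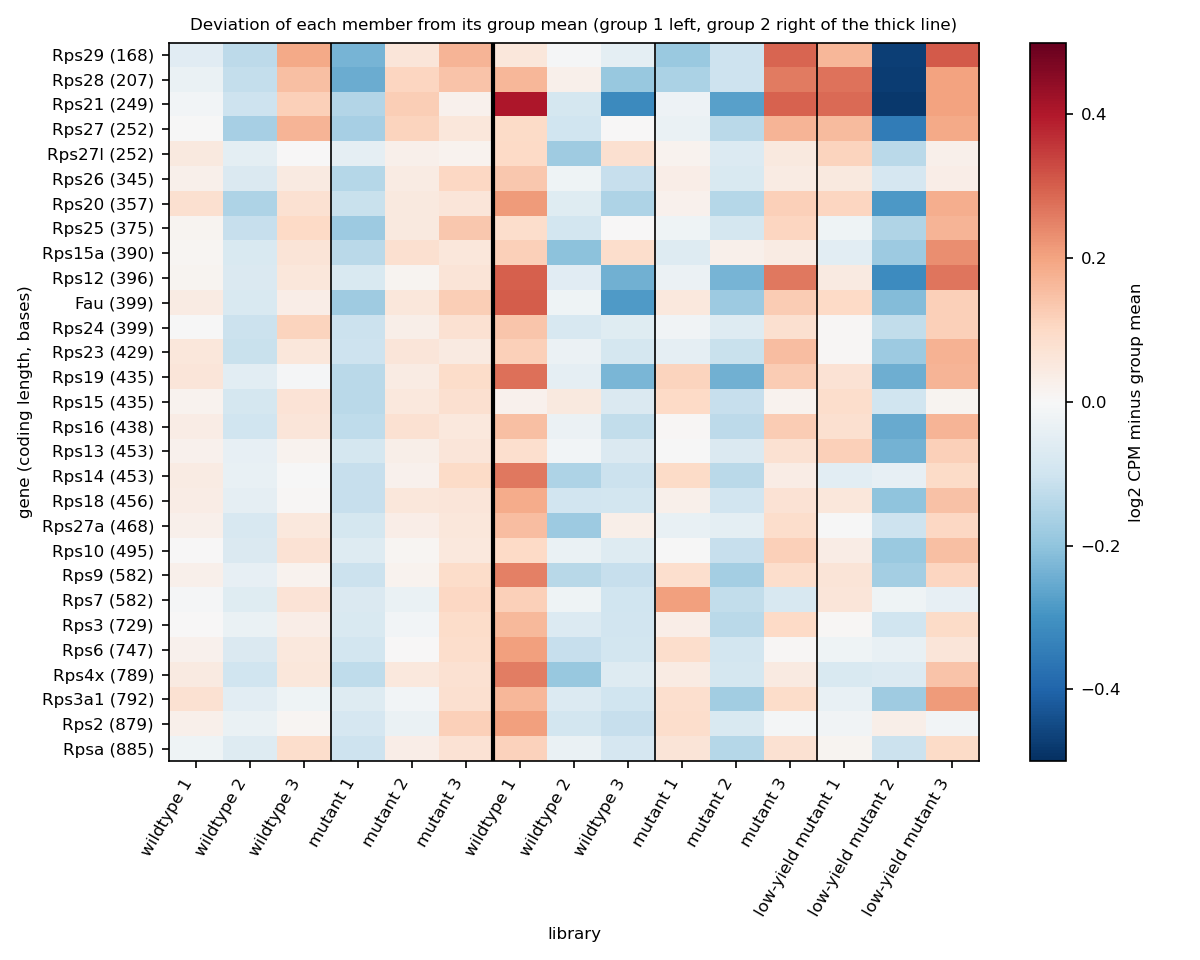
Log2 CPM minus the group mean for each member (rows, ordered by coding length in bases) in each of the 15 libraries (columns, group 1 left of the thick line), red above and blue below the mean. Some columns share a colour throughout, as in wildtype replicate 1 of group 2 (29 of 29 above), and the top rows, the shortest mRNAs, are darkest in low-yield replicate 2 (median -0.47).

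The balance of the subunits was described by the ratio of summed member counts to those of the 48 large subunit genes, without a test. The 48 genes include Rpl5, whose lower counts in mutants raise this ratio. Counted with copies, it was 0.569 to 0.570 in wildtype and 0.572 to 0.586 in mutant libraries of group 1. With Rpl5 and its copies left out of the large subunit sum these ranges overlapped, at 0.589 to 0.591 and 0.587 to 0.601. Group 2 ratios were 0.666 to 0.691 in wildtype, 0.663 to 0.683 in mutant and 0.643 to 0.668 in low-yield libraries, which overlap. Without Rpl5 and its copies they were 0.686 to 0.711, 0.677 to 0.701 and 0.656 to 0.685, where mutant libraries overlapped with both other kinds and low-yield libraries lay below wildtype by a narrow gap. Counted without copies, the group 2 values were 0.701 to 0.728, 0.684 to 0.694 and 0.659 to 0.679 and did not overlap, while those of group 1 did (0.568 to 0.575 and 0.567 to 0.586). Without Rpl5 those of group 2 were 0.710 to 0.735, 0.689 to 0.699 and 0.664 to 0.684, which again did not overlap. The share of large subunit counts held by copies was 12.3% to 13.4% in wildtype and 9.73% to 11.2% in both kinds of mutant in group 2, so this share was lower in the mutants.

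Of the large subunit genes, 2 of 48 were called in group 1, both lower, where 6.78% of all genes were called lower and 5.79% higher. In group 2 mutants 1 was called higher and 2 lower (3.32% and 2.95% of all genes), and likewise in low-yield mutants (6.68% and 5.86%). Those lower were Rpl5 and Rpl22l1, the paralogue of Rpl22, which fell by 0.99, 0.88 and 0.81 on the log2 scale (SE 0.08, 0.16 and 0.15). The median over the list was 0.09, 0.02 and 0.05.

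The factors that assemble the 40S subunit included genes that rose. Of 50 such genes, 17 rose in group 1 (5.79% of all genes did), 9 in group 2 mutants (3.32%) and 20 in low-yield mutants (6.68%), and none was called lower (6.78%, 2.95% and 5.86% of all genes were). Their median log2 change was 0.18, 0.19 and 0.27. Utp20, a large scaffold of the early precursor, rose by 0.48 (SE 0.06), 0.54 (SE 0.07) and 0.57 (SE 0.07) on the log2 scale. Heatr1, which also promotes transcription of the rRNA genes, rose by 0.59 (SE 0.07), 0.47 (SE 0.08) and 0.53 (SE 0.08). Rrp12, needed for export of the precursor from the nucleus, rose by 0.60 (SE 0.07), 0.39 (SE 0.10) and 0.45 (SE 0.10). The group 2 comparisons share their wildtype libraries. The assembly list was chosen with earlier results of these data known, so its counts beside the shares of all genes are a description only. Whether the assembly list and the members differ was not tested.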

How the data were processed

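RNA from 15 libraries was read as 151 bp pairs on an Illumina NovaSeq, per the labels' protocols. The submitters' processing notes name cutadapt 2.3, FastQC 0.11.8, STAR 2.7.8a, RSEM 1.3.3, MultiQC 1.7 and GRCm38, with no role or order; annotation release and strand are not given in the sources used here. The authors deposited expected counts per gene, not normalised; all were whole numbers, so rounding changed nothing. Rows of reporter sequences (4 and 5) held 5 counts in all and were left out. Of 55487 genes, 99.5% were in GENCODE M21 (GRCm38), used for coordinates and coding lengths.

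Each table was fitted whole with edgeR 4.0.16 in R 4.3.3: TMM, filterByExpr, robust quasi-likelihood fit (not the legacy mode), two-sided F test, Benjamini-Hochberg adjustment over all genes tested, threshold 0.05 ("called"). The 9 libraries of group 2 shared a fit. Alternatives used DESeq2 1.42.0, limma 3.58.1 voom, RLE factors, other filters, counts summed with copies, each library left out and the replicate number as a block. Copies were found with blastn 2.17.0. Deviations used a pseudocount of 0.5. Members and lists were chosen with earlier results of these data known. Values per library are given for the gene called, for the members with the smallest p or the largest change in a comparison and for those at either end of the level per length; others named were chosen after their values were seen. Total counts were 24954324 to 58513669.

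Deviations of same-numbered libraries of group 1 correlated at r = 0.146 to 0.441 over genes (3 pairs). The 6 pairs of different numbers gave -0.349 to 0.230, so the ranges overlap. In group 2 r was -0.07 to 0.24 over 9 same-numbered pairs and -0.24 to 0.14 over 18 others. The ranges overlap in both groups of mice, so this check does not show that the numbers pair libraries, and the labels state no pairing. The main fits used no pairing.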

Additional observations from a re-analysis of the deposited data

How the results depend on the processing

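Rps27l kept its direction and its call in group 1 and over both groups of mice in every alternative fit, with log2 changes of 0.32 to 0.38 and 0.29 to 0.34 when each library was left out. In group 2 it stayed above 0 throughout (0.22 to 0.36 in mutants and 0.17 to 0.32 in low-yield mutants with a library left out), with adjusted p of 0.0138 to 0.342 in mutants and 0.0195 to 0.416 in low-yield mutants over all fits. The number of members called in group 1 was 3 with DESeq2, 2 with limma voom and 1 to 4 when each library was left out. Over all genes, DESeq2 called 1142 higher and 1165 lower of 12953, and limma voom 1022 and 1121 of 14048. Without mutant replicate 1, which gave the 4 members, 844 genes were called higher and 810 lower of 14572. In group 2 the number of members called was 1 with limma voom in mutants and in low-yield mutants, and 0 when each library was left out. There limma voom called 1069 genes higher and 931 lower in mutants, and 1744 and 1655 in low-yield mutants, of 15024. Over both groups of mice the number of members called was 7 with limma voom (Rps3, Rps10, Rps14, Rps15, Rps27, Rps27l and Rpsa). That fit called 1993 genes higher and 2013 lower of 15954. The number of members was 1 to 2 when each library was left out. Rps14 was added without wildtype replicate 1 of group 2, where 1757 genes were called higher and 1872 lower of 16781. With the replicate block in edgeR, 1 member, Rps27l, was called in group 2 mutants (log2 change 0.31, adjusted p = 0.0482). That fit called 688 genes higher and 621 lower of 15024. In low-yield mutants Rps27l was not called (adjusted p = 0.0738 by edgeR). The numbers were not found to pair libraries in either group of mice, and the block changed no other call of a member. Rpl5 missed the threshold in group 2 mutants without wildtype replicate 3 (adjusted p = 0.0597) or mutant replicate 1 (0.0630), and in low-yield mutants without low-yield replicate 2 (0.0666). The legacy mode of edgeR was added after the data were seen and changed no call of a member. With copies added, the members' share of counts was 2.75% and 2.94% in wildtype and mutant libraries of group 1 and 2.35%, 2.39% and 2.34% in wildtype, mutant and low-yield libraries of group 2. The causes of these shifts were not tested. Changes of the short mRNAs in group 2 within their wide intervals were not detectable in these libraries.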
